A study of Homo sapiens with 12 samples.

Results

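Complement receptors, regulators and components were followed in HL-60, an established line from a human promyelocytic leukemia, while it matured toward neutrophils in all-trans retinoic acid (ATRA), which activates retinoic acid receptors. The genes are CR1, CR2, CD46, CD55, CD59, CFD, CFP, C3 and C1QBP, taken by symbol, and all 9 are among the 26364 genes of the count files. RNA was sequenced from 4 groups of 3 libraries, namely HL-60 cells before ATRA (0 h) and HL-60 cells exposed to 1 µM ATRA for 4 h, for 2 d or for 4 d. All groups are the same line in the same medium with fetal bovine serum. No untreated library of the later times was used here, so ATRA and time in culture cannot be told apart. Nothing in the labels says whether replicates came from separate cultures, so p-values reflect only how far these libraries differ, which may be technical.

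Complement is a cascade of plasma proteases that deposits fragments of C3 on surfaces, draws in phagocytes and builds a membrane attack complex. In the alternative pathway factor D (CFD) cleaves factor B, and properdin (CFP) stabilizes the resulting C3 convertase. Host cells carry regulators: CD55 speeds the decay of convertases, CD46 is a cofactor for cleavage of C3b and C4b, and CD59 blocks the membrane attack complex. CR1 binds C3b and C4b and serves phagocytes as a receptor for opsonized particles, whereas CR2 binds C3d and is known mainly from B cells. C1QBP was named for binding the globular heads of C1q and is mostly a protein of the mitochondrial matrix.

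On the RefSeq map CD55, CR2, CR1, CR1L and CD46 follow each other in that order on chromosome 1, in the regulators of complement activation cluster. CD59 lies on chromosome 11, C1QBP on chromosome 17, CFD and C3 on chromosome 19 and CFP on chromosome X. The 250 bases before the annotated start are shown for CR1, CFP, CD46 and CD55, the 4 members that rose at both 2 d and 4 d, from RefSeq on GRCh38.p14, 5′ to 3′ on the gene's own strand. Capitals mark matches to the motifs searched.
CR1, chr1:207495907-207496156, plus strand: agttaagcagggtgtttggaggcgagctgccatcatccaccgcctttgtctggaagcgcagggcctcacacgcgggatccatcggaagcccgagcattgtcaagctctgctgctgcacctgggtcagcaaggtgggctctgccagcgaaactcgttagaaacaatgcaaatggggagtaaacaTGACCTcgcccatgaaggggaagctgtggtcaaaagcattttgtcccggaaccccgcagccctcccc
CFP, chrX:47630306-47630555, minus strand: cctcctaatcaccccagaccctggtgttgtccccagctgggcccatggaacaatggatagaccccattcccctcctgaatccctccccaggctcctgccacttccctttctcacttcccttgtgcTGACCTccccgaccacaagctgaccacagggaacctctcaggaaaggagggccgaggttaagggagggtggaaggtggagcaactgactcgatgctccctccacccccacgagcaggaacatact
CD46, chr1:207751788-207752037, plus strand: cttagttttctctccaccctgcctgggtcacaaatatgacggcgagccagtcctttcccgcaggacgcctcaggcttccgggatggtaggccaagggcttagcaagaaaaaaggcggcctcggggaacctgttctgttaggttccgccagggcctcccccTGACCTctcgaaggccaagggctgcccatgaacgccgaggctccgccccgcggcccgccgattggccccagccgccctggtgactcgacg
CD55, chr1:207321428-207321677, plus strand: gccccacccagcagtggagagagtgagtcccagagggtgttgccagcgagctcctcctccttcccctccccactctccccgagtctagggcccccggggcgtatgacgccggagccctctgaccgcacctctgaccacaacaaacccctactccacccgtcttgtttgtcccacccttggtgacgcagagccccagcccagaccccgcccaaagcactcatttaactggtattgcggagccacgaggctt
Each capital run is the reverse complement of AGGTCA, the half-site bound by retinoid and related nuclear receptors. Promoters from 250 bases before to 50 after the start were searched on both strands for AGGTCA, for GAGGAA, a core bound by PU.1, and for TTNNGNAA, a form of the C/EBP consensus. At the gene's outermost start, 3 of the 8 members with a promoter sequence held AGGTCA (CR1, CFP and CD46), against 13.8% of 35116 promoters. GAGGAA and TTNNGNAA were in 0 of these 8 windows, against 27.9% and 36.8% of promoters. Another start listed for CFP held 1 AGGTCA and 3 GAGGAA, and a start further downstream in CD59 held 2 TTNNGNAA. A match is a description of letters and not a site of binding.

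Levels are CPM, reads per gene scaled to the library's gene reads with TMM factors. Changes are log2 fold changes from edgeR's quasi-likelihood test fitted to all 12 libraries, ± an SE derived from the test's F. A gene was called where its Benjamini-Hochberg adjusted p over 12671 genes lay under 0.05. All 9 members passed the filter on low counts, 8 of them with all 12 libraries over its cutoff. CR2 passed with 3 libraries, 2 of 4 d and 1 of 4 h, the fewest that the filter allows. Gene reads per library ran from 7866757 to 13658177. Some libraries stood apart. In 0 h replicate 2, 4 h replicate 3 and 4 d replicate 1, levels relative to the other libraries of the group increased with GC content, by 0.489, 0.365 and 0.314 log2 units per 10 points of GC. Reads fell on 22265 genes in 4 h replicate 1 and on 15198 to 15798 genes in each of the other 11. Fits without these libraries and a fit with an offset for GC content and length are given where they changed a member's result.

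By 4 d, CR1, CFP, CD55, CD46 and CR2 had risen against untreated cells and C1QBP had fallen, 6 of 9 members in all, where edgeR called 57.8% of all genes. CR2 entered the test through libraries of the groups where it was high, and without it 5 of 8 members were called at 4 d. C3 rose at 4 h and 2 d, and its 4 d value was not called. CD59 and CFD were called in 0 of 5 comparisons. At 4 h against 0 h, edgeR called 2 of 9 members (1 higher, 1 lower), where it called 6.23% of all genes. At 2 d it called 6 of 9 (5 higher, 1 lower), where it called 35.6% of all genes. The median log2 fold change of the members was 0.07 at 4 h, 0.71 at 2 d and 1.4 at 4 d, beside 0.0035, -0.020 and 0.00014 for all genes. These medians include CR2, whose values of 3.36, 0.77 and 4.25 lay above each of them, so they are partly set by the filter. Without CR2 the middle values of the other 8 members at 4 d were those of C3 (0.37) and CD46 (1.40). The libraries of the groups did not overlap for 3 members at 4 h, 6 at 2 d and 7 at 4 d against 0 h, and for 25.5%, 51.0% and 59.0% of all genes. In the F-test over all times, edgeR called 7 of 9 members and 63.2% of all genes. CR2 is among the 7 called there and among the 7 without overlap at 4 d.

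**Figure D1:**
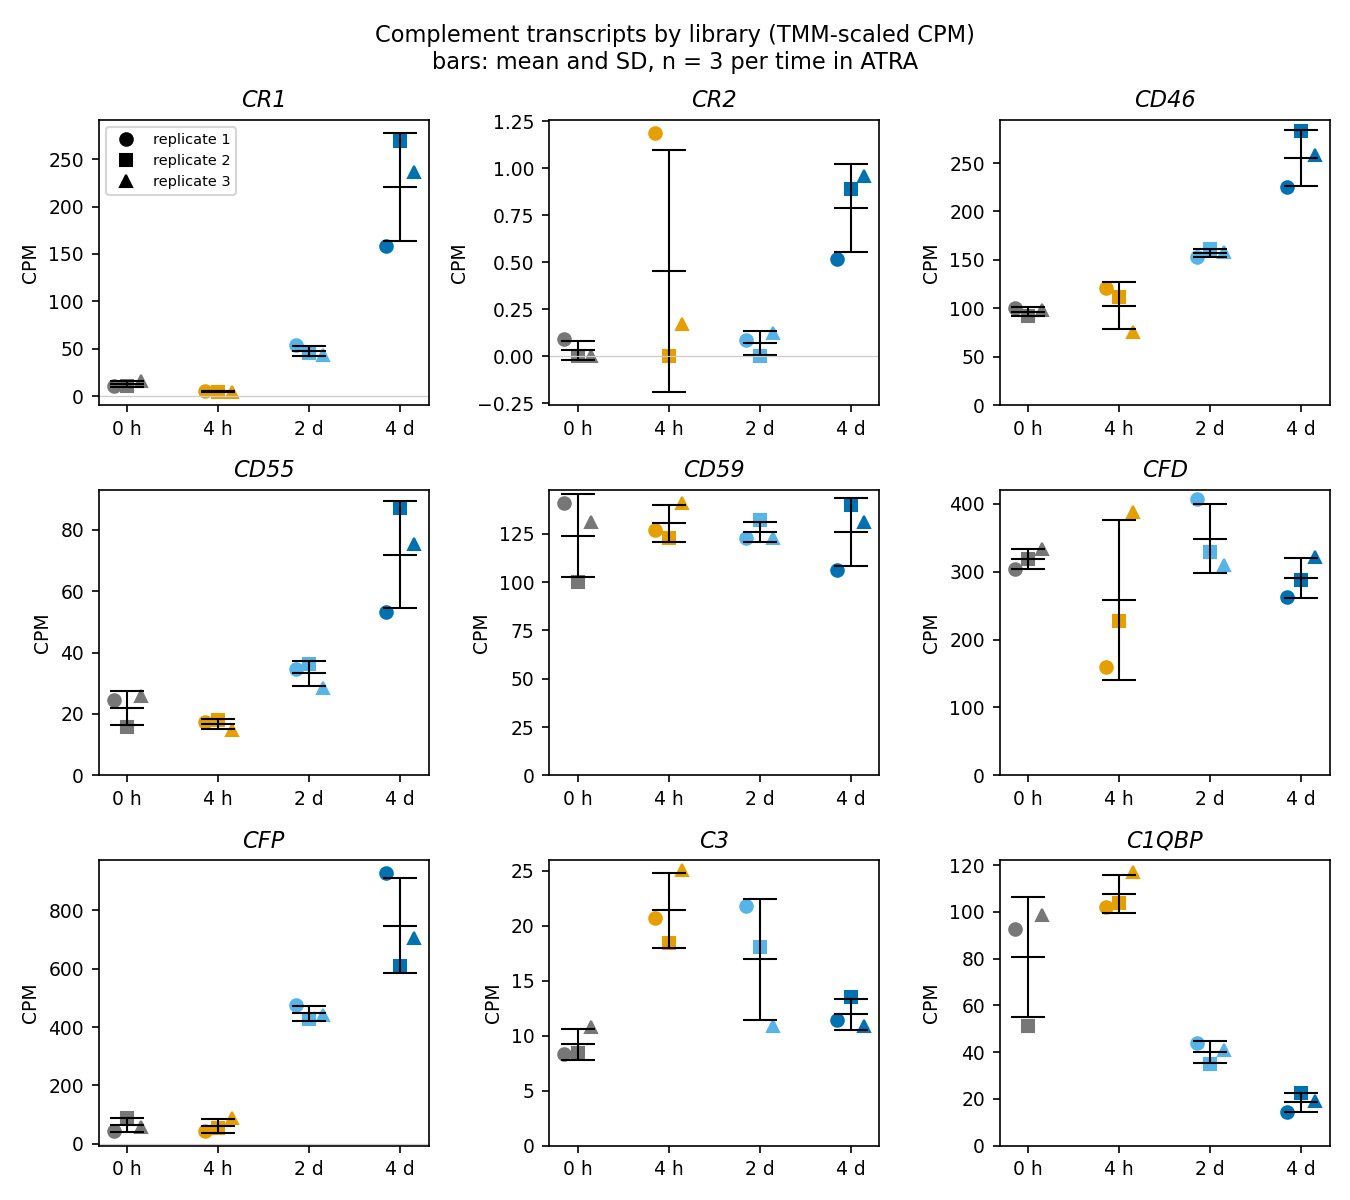
CPM of each member (vertical axes, each with its own scale) in the 12 libraries at 0 h, 4 h, 2 d and 4 d (horizontal axes); symbols are replicates and bars the mean and SD of 3. CR1, CD46, CD55 and CFP were highest at 4 d, C1QBP lowest at 4 d and C3 highest at 4 h, while CD59 averaged 124 to 130 CPM at every time.

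CR1, the C3b receptor, fell within hours and had the largest rise at 4 d among the members with more than a few reads. Its level was 11.1, 11.1 and 15.9 CPM in the 0 h libraries, 5.93, 4.86 and 4.41 CPM at 4 h, 53.6, 45 and 43.9 CPM at 2 d and 158, 269 and 236 CPM at 4 d. No group overlapped another, and the order of the levels was 4 h, 0 h, 2 d and 4 d. It fell to 5.06 ± 0.782 CPM at 4 h, against 12.7 ± 2.75 CPM at 0 h (SD, n = 3 each), a log2 change of -1.32 ± 0.24 (edgeR adjusted p = 0.00528). At 2 d it was 3.74-fold above 0 h (1.905 ± 0.22, edgeR adjusted p = 2.81e-05). At 4 d it averaged 221 ± 57.2 CPM and was 17.4-fold above 0 h (4.12 ± 0.24, edgeR adjusted p = 1.79e-08), rank 181 of 12671 from the largest rise. The steps were 3.23 ± 0.24 for 2 d against 4 h and 2.22 ± 0.22 for 4 d against 2 d (edgeR adjusted p = 7.54e-07 and 2.28e-05). CR1L, the neighbouring gene that resembles CR1, had 0 to 4 reads per library.

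CR2, the C3d receptor, stayed at the edge of detection. Reads numbered 1, 0 and 0 at 0 h, 13, 0 and 2 at 4 h, 1, 0 and 1 at 2 d, and 5, 9 and 11 at 4 d. Every 4 d library had more reads than any library of 0 h or 2 d. The sums were 25 reads at 4 d and 1 read at 0 h, a ratio of 25.8 with a 95% interval of 4.22 to 1060 that covers counting error only, and edgeR called it (adjusted p = 0.0151, and 0.00258 to 0.0488 over 19 alternatives). Having passed the filter through 4 d and 4 h libraries, it had to differ from 0 h to be tested. In the fit to the 6 libraries of 0 h and 4 d it was filtered out and got no value, and with no low-count filter the adjusted p was 0.00318. At 4 h 13 of 15 reads came from replicate 1, where 24 of 31 complement genes below the filter had a read, against 2 to 7 in the other 11 libraries. That comparison was not called (edgeR adjusted p = 0.177). For 4 d against 2 d, with 25 and 2 reads, the edgeR adjusted p was 0.0474. That call was lost when any 2 d library was left out (0.116, 0.176 and 0.0816 without replicates 1, 2 and 3) or any 4 d library (0.0569, 0.0947 and 0.114). It was also lost without 0 h replicate 1 (0.0637), 0 h replicate 3 (0.0578) or 4 h replicate 3 (0.0512). CR2 was not called for 2 d against 4 h (-2.59 ± 1.31, edgeR adjusted p = 0.146). Without 4 h replicate 2, which had 0 reads of it, CR2 was called lower at 2 d (-3.22, edgeR adjusted p = 0.0431). Leaving out single libraries gave -3.22 to -0.32 for that comparison. Of 7 markers of B cells, the cells CR2 is best known from, 3 had enough reads to test, and at 4 d against 0 h CD22 was higher and CD79A lower. MS4A1, CD79B and BLK had 0 reads at 4 d. The B cell list summed to 7.92 to 9.76 CPM at 4 d and 10 to 17.3 CPM at 0 h, and its part in the CR2 result was not tested.

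CD46 and CD55, the membrane regulators that act on C3 and C4 fragments and on convertases, both rose from 2 d on. CD46 stood at 100, 91.6 and 98 CPM at 0 h, 121, 112 and 75.2 CPM at 4 h, 153, 161 and 158 CPM at 2 d and 225, 283 and 258 CPM at 4 d. The 2 d and 4 d libraries overlapped neither each other nor the earlier ones, while those of 4 h lay on both sides of the 0 h range. CD46 was 2.65-fold higher at 4 d than at 0 h (1.40 ± 0.18, edgeR adjusted p = 1.99e-05) and 1.63-fold higher at 2 d (0.71 ± 0.18, edgeR adjusted p = 0.00758). Its longest transcript had the lowest GC content of the members, 37.7%. With an offset for GC content and length the 2 d change was 0.38 (edgeR adjusted p = 0.0107). For 2 d against 4 h it rose by 0.62 ± 0.18 (edgeR adjusted p = 0.0159), a call lost without 2 d replicate 2 (0.0593). For 4 d against 2 d it rose by 0.70 ± 0.18 (edgeR adjusted p = 0.0109).

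CD55, decay-accelerating factor, had a lower level per kilobase than CD46 at every time. It stood at 24.6, 15.6 and 25.8 CPM at 0 h, 17.3, 18.1 and 14.9 CPM at 4 h, 34.8, 36.4 and 28.5 CPM at 2 d and 53.1, 87.2 and 75.5 CPM at 4 d. The lowest values at 0 h and at 4 d were in 0 h replicate 2 and 4 d replicate 1, both with the raised GC slope. CD55 was 3.27-fold higher at 4 d than at 0 h (1.71 ± 0.22, edgeR adjusted p = 2.06e-05). For 4 d against 2 d it rose by 1.11 ± 0.22 and for 2 d against 4 h by 0.99 ± 0.22 (edgeR adjusted p = 0.00225 and 0.0036). At 2 d against 0 h it was 0.60 ± 0.22 (edgeR adjusted p = 0.0466). That call was lost without 0 h replicate 1 or 2 (0.0569 and 0.148), 4 h replicate 1 or 2 (0.057 and 0.0613), 2 d replicate 1 or 2 (0.123 and 0.144) or 4 d replicate 3 (0.0613), and in the fit to the 6 libraries of these groups (0.0506). At 4 h the value of -0.39 ± 0.22 was not called (edgeR adjusted p = 0.272). It was called lower with the GC and length offset (-0.54, edgeR adjusted p = 0.0367) and without the 3 libraries of raised GC slope (-0.50, edgeR adjusted p = 0.0166).

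CD59, the inhibitor of the membrane attack complex, was not called at any time. It stood at 141, 100 and 131 CPM at 0 h, 127, 123 and 141 CPM at 4 h, 123, 132 and 123 CPM at 2 d and 106, 140 and 131 CPM at 4 d, and every group overlapped every other. The log2 fold change at 4 d against 0 h was 0.019 with a 95% interval of -0.334 to 0.372 (edgeR adjusted p = 0.931). At 4 h the interval was -0.283 to 0.422 and at 2 d -0.332 to 0.374. The sign of these values changed with the processing.

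The regulators were set against each other within each library as ratios of CPM per kilobase of exon, which need no scaling between libraries. CD46 to CD59 was 1.73, 2.23 and 1.82 at 0 h, 2.33, 2.22 and 1.3 at 4 h, 3.03, 2.97 and 3.15 at 2 d and 5.17, 4.91 and 4.82 at 4 d. CD55 to CD59 was 0.36, 0.322 and 0.405 at 0 h, 0.282, 0.305 and 0.218 at 4 h, 0.582, 0.569 and 0.48 at 2 d and 1.03, 1.28 and 1.19 at 4 d. Both ratios were higher in every 4 d library than in any library of the other times. The ratio of CR1 to CD59 averaged 0.0855 ± 0.0182 before ATRA, 0.0324 ± 0.00644 after 4 h, 0.312 ± 0.0407 after 2 d and 1.43 ± 0.185 after 4 d (SD, n = 3). By mean CPM per kilobase, CD59 came after CD46 and above CD55 and CR1 at 0 h, and below all 3 at 4 d. That order between genes depends on the exon lengths used, and the annotation used in counting is not stated. By CPM, CD59 (124) led CD46 (96.6), CD55 (22) and CR1 (12.7) at 0 h. At 4 d CD59 (126) came below CD46 (255) and CR1 (221) and above CD55 (71.9). These ratios are given as a description, with no test.

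**Figure D2:**
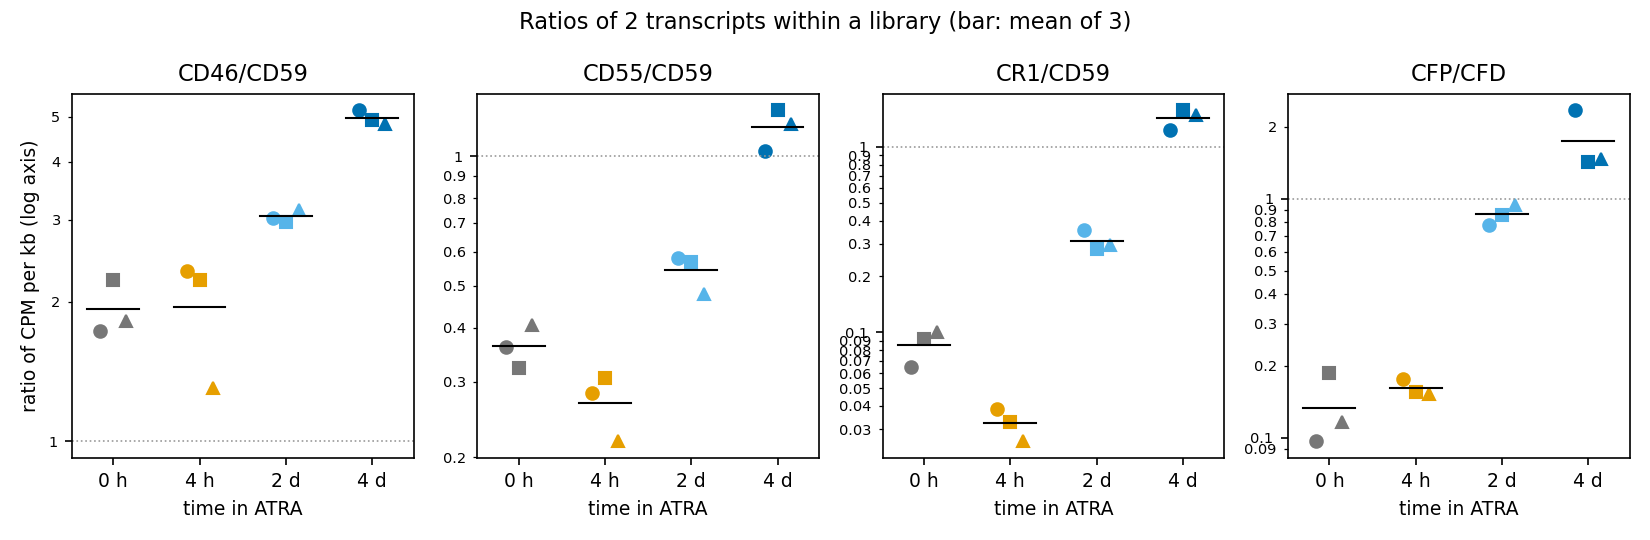
Ratios of CPM per kilobase of exon between members within each library (vertical log axes) at 0 h, 4 h, 2 d and 4 d (horizontal axes); circles, squares and triangles are replicates 1, 2 and 3 and bars the mean. CD55 to CD59, CR1 to CD59 and CFP to CFD lay above 1, the dotted line, in all 4 d libraries and below it in all 0 h, 4 h and 2 d libraries. The place of a ratio relative to 1 depends on the exon lengths used.

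Among the soluble components of the alternative pathway, CFP rose at 2 d and 4 d. CFP, properdin, stood at 44.4, 89.1 and 58.3 CPM at 0 h, 42.5, 53 and 88.5 CPM at 4 h, 476, 426 and 441 CPM at 2 d and 928, 611 and 704 CPM at 4 d. The 0 h and 4 h libraries overlapped, the 2 d libraries lay above them and the 4 d libraries above those of 2 d. The highest values at 0 h, 4 h and 4 d were in the libraries with the raised GC slope. CFP was 7-fold higher at 2 d than at 0 h (2.81 ± 0.31, edgeR adjusted p = 1.61e-05) and 11.7-fold higher at 4 d (3.55 ± 0.32, edgeR adjusted p = 7.85e-07). For 2 d against 4 h it rose by 2.87 ± 0.31 (edgeR adjusted p = 1.54e-05). For 4 d against 2 d it was 0.74 ± 0.29 and missed the threshold (edgeR adjusted p = 0.0719). Without 0 h replicate 2 or 4 h replicate 3 that step was called (edgeR adjusted p = 0.025 and 0.0359), as it was without all 3 libraries of raised GC slope (0.57, edgeR adjusted p = 0.00163). The step also passed with the GC and length offset, with no low-count filter, in the fit to 6 libraries and by DESeq2 (adjusted p = 0.0294, 0.00778, 0.0108 and 0.0405).

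CFD, the protease that starts the alternative pathway, was abundant at all times. It stood at 304, 318 and 333 CPM at 0 h, 159, 228 and 388 CPM at 4 h, 407, 329 and 310 CPM at 2 d and 263, 287 and 321 CPM at 4 d, with overlap between all groups. The 4 h libraries spread most, with 4 h replicate 3 highest and 4 h replicate 1 lowest. CFD had the highest GC content of the members, 65.4%. Its log2 fold change was -0.13 at 4 d against 0 h (95% interval -0.681 to 0.414, edgeR adjusted p = 0.673) and -0.30 at 4 h (-0.85 to 0.246, edgeR adjusted p = 0.453). Without 4 h replicate 3 the 4 h value was -0.70 and was called (edgeR adjusted p = 0.0354), as it was without the 3 libraries together (-0.72, edgeR adjusted p = 0.00409). With the GC and length offset it was 0.079 (edgeR adjusted p = 0.865). The value for 2 d against 4 h, 0.43 ± 0.25 (edgeR adjusted p = 0.209), was called without 4 h replicate 3 (0.83, edgeR adjusted p = 0.00619) and without the 3 libraries together (0.84, edgeR adjusted p = 0.000147).

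Per kilobase of exon the leading member changed between these components. At 4 d CFP led with 407 ± 88.6 CPM per kilobase and CFD had 238 ± 24, whereas at 0 h CFD led with 261 ± 11.7 and CFP had 34.8 ± 12.4 (SD, n = 3 each). The ratio of CFP to CFD was 0.0968, 0.186 and 0.116 at 0 h, 0.177, 0.155 and 0.152 at 4 h, 0.776, 0.859 and 0.945 at 2 d and 2.35, 1.42 and 1.46 at 4 d. By mean CPM, CFP (448) already lay above CFD (349) at 2 d, so the time of the switch depends on the exon lengths used.

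C3, the central component whose fragments opsonize targets, had its highest mean at 4 h. It stood at 8.36, 8.45 and 10.8 CPM at 0 h, 20.7, 18.4 and 25.1 CPM at 4 h, 21.8, 18.1 and 10.9 CPM at 2 d and 11.4, 13.5 and 10.9 CPM at 4 d. At 4 h it was 2.32-fold higher than at 0 h (1.22 ± 0.23, edgeR adjusted p = 0.00875), the 1 member called higher then. At 2 d it was 0.89 ± 0.24 above 0 h (edgeR adjusted p = 0.0101), and 2 d replicate 3 lay below the other 2 d libraries, just above the highest of 0 h. That call was lost without 2 d replicate 1 (0.67, edgeR adjusted p = 0.0621). At 4 d the value of 0.37 ± 0.24 was not called (edgeR adjusted p = 0.196). The value for 4 d against 2 d (-0.52 ± 0.23, edgeR adjusted p = 0.12) was called without 2 d replicate 3 (-0.75, edgeR adjusted p = 0.0237) and with the GC and length offset (-0.64, edgeR adjusted p = 0.0333).

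C1QBP, the mitochondrial C1q-binding protein, was the 1 member called lower at 2 d and 4 d. It stood at 92.5, 51.2 and 98.5 CPM at 0 h, 102, 104 and 117 CPM at 4 h, 44.1, 35 and 41 CPM at 2 d and 14.3, 22.5 and 19 CPM at 4 d. Every 2 d library lay below every earlier one and every 4 d library below those of 2 d. C1QBP fell to 18.6 ± 4.09 CPM at 4 d, against 80.7 ± 25.8 CPM at 0 h (SD, n = 3 each), a log2 change of -2.12 ± 0.24 (edgeR adjusted p = 6.87e-06). It was -1.01 ± 0.23 at 2 d against 0 h, -1.43 ± 0.23 for 2 d against 4 h and -1.10 ± 0.24 for 4 d against 2 d (edgeR adjusted p = 0.00419, 0.00039 and 0.00429). At 4 h all libraries lay above those of 0 h, but the value of 0.42 ± 0.23 was not called (edgeR adjusted p = 0.254). On GRCh38, 100 of its 1239 exon bases overlap RPAIN on the other strand, which had 148 to 317 reads per library, and whether counting used strand is not stated.

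**Figure D3:**
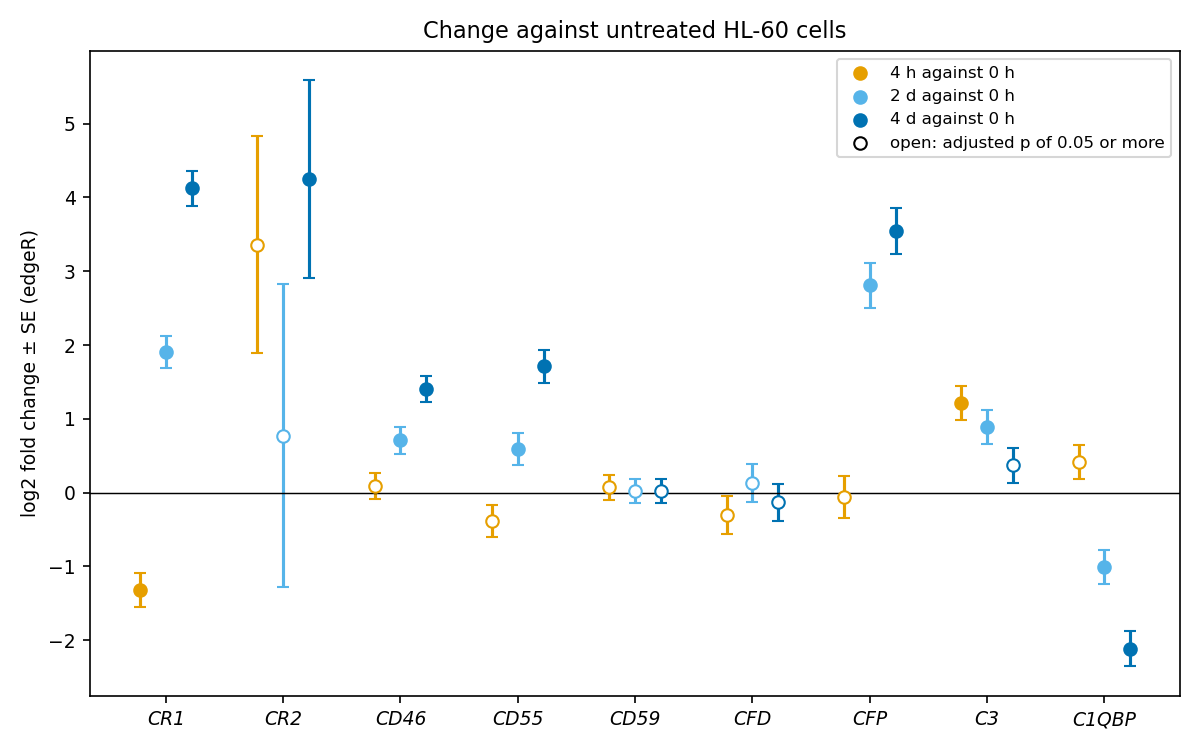
Log2 fold change ± SE by edgeR (vertical axis) of each member (horizontal axis) at 4 h, 2 d and 4 d against 0 h; filled points had an adjusted p under 0.05. CR1 lay at -1.32 at 4 h and at 4.12 at 4 d, and C1QBP at -2.12 at 4 d.

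Between treated times edgeR called 5 of 9 members for 2 d against 4 h (4 higher, 1 lower), where it called 34.5% of all genes, and 5 of 9 for 4 d against 2 d (4 higher, 1 lower), where it called 26.6%. The libraries did not overlap for 5 and 6 members in these steps, and for 53.0% and 48.0% of all genes. CR1, CD46, CD55 and CFP rose in the first step, CR1, CR2, CD46 and CD55 in the second, and C1QBP fell in both. CR2 is among the called members and those without overlap in the second step. It had 2 libraries of 4 d, 1 of 4 h and 0 of 2 d over the filter's cutoff. Its place in these counts is thus partly set by the filter, and its call was lost in 10 of 19 alternatives. These steps share libraries with the comparisons against 0 h, which share the 0 h libraries among themselves.

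Likeness of pattern was measured as the root mean square difference of centred log2 CPM over the 12 libraries, against genes averaging at least 10 CPM, as a description. Nearest to CR1 were DTX4 (0.388), RGS2 (0.392) and SIGLEC17P (0.405). CFP was nearest to LILRA3 (0.235), SLC12A4 (0.268) and CTSD (0.296). For CD46 the nearest were BAZ2A (0.0941), ZNF780A (0.0992) and FBXL5 (0.112), and for CD55 CTSS (0.159), PIK3R3 (0.19) and CCDC69 (0.193). C1QBP was nearest to MRPL3 (0.127), a mitochondrial ribosomal protein, WDR12 (0.157), a factor of ribosome assembly, and PRMT5 (0.171), an arginine methyltransferase. The nearest genes to C3 were WBSCR16 (0.214), MGLL (0.27) and CDC42EP4 (0.274). For CR2, with its few reads, they were ARRDC4 (0.665), ABLIM1 (0.738) and MXD1 (0.743). Among the members the nearest pair was CD46 and CD55 (0.328), and CR1 was nearer to CFP (0.853) than to CD55 (1.27), CD46 (1.5) and CR2 (1.81) of its own cluster on chromosome 1. Genes were centred but not scaled, so this distance also depends on how much each gene varied. The SD of log2 CPM was 2.13 for CR1, 1.76 for CFP, 0.855 for CD55 and 0.617 for CD46.

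A wider list of 49 complement genes outside the members held 18 with enough reads to test. Against 0 h, 1 rose and 6 fell at 4 h, 9 rose and 1 fell at 2 d, and 11 rose and 1 fell at 4 d. Of all genes, edgeR called 2.00%, 16.9% and 28.1% higher at these times and 4.23%, 18.7% and 29.7% lower. In C1R, CLU, CSMD1 and CD93, 0 of 3 libraries of 0 h lay over the filter's cutoff. These 4 genes were tested through later libraries. The counts and medians of the list at later times, and these genes' own changes against 0 h, are thus partly set by the filter. CD93 averaged 0.189 CPM at 0 h and 1.66 CPM at 2 d, and C1R 0.555 CPM at 0 h and 8.67 CPM at 4 d. The median log2 fold change of the 18 genes was -0.625 at 4 h, 1.22 at 2 d and 1.9 at 4 d. At 4 h THBD, thrombomodulin, rose by 2.998 ± 0.25, while ITGAX, a subunit of complement receptor 4, fell (-2.15 ± 0.35), as did C3AR1 (-1.79 ± 0.31) and C5AR1 (-1.13 ± 0.30), the receptors of the C3a and C5a fragments (edgeR adjusted p = 1.57e-05, 0.00325, 0.00413 and 0.0416). At 2 d the largest calls were THBD (4.38 ± 0.25), VSIG4 (4.24 ± 0.19), CD93 (3.13 ± 0.91) and ITGB2, the beta chain of complement receptors 3 and 4 (1.78 ± 0.20), with edgeR adjusted p of 5.73e-08, 6.65e-09, 0.0163 and 1.88e-05. At 4 d the largest change was in VSIG4, a phagocyte receptor for C3b and iC3b (6.12 ± 0.19, edgeR adjusted p = 3.05e-10). FCN1, M-ficolin of the lectin pathway, fell then (-4.13 ± 0.29, edgeR adjusted p = 9.8e-08), THBD rose by 4.09 ± 0.25 and C1R, a protease of the C1 complex, by 3.93 ± 0.44 (edgeR adjusted p = 2.9e-08 and 5.87e-06).

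Between treated times 12 of the 18 rose and 1 fell in the first step, 2 d against 4 h. In the second, 4 d against 2 d, 9 rose and 1 fell. Of all genes, edgeR called 16.5% higher and 18.0% lower in the first step, and 13.1% and 13.5% in the second. VSIG4 (4.53 ± 0.19), C1R (3.21 ± 0.58), ITGAX (3.08 ± 0.36) and C1RL (2.40 ± 0.18) had the largest changes in the first step (edgeR adjusted p = 2.77e-08, 0.000881, 3.29e-05 and 8.01e-07). C1R (2.41 ± 0.38), FCN1 (-2.41 ± 0.29), VSIG4 (1.88 ± 0.14) and ITGAX (1.67 ± 0.34) had those of the second (edgeR adjusted p = 0.000605, 9.14e-05, 5.4e-06 and 0.00281). C1R averaged 0.17 CPM at 4 h, and both C1R and CLU had 0 of 3 libraries of 4 h over the filter's cutoff. They were tested through later libraries, so the first step's counts and the size of its C1R change are partly set by the filter. Of the 31 genes with too few reads, 4 had 0 reads in all libraries, among them C4A, C4B and CFB, the factor that CFD cleaves. Reads that align equally well to the near-identical C4A and C4B can go uncounted for both, so 0 reads may not mean that they were silent. CFB had 0 reads also in 4 h replicate 1, where 24 of these 31 genes had a read, and the cause was not tested.

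**Figure D4:**
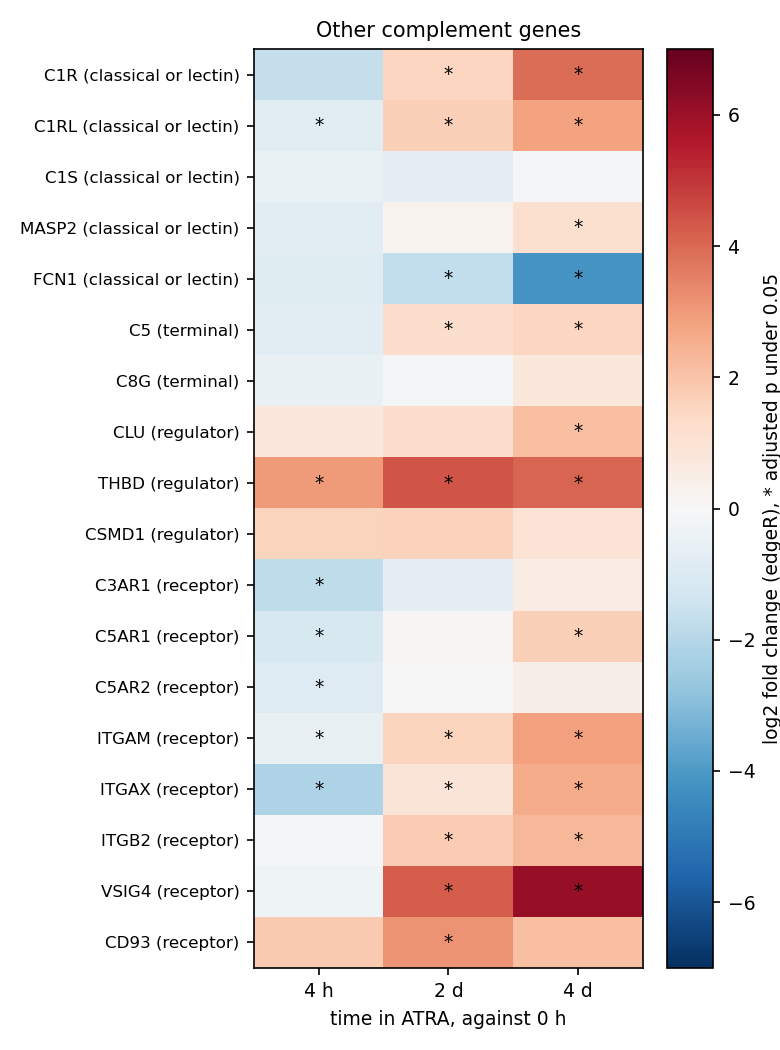
Log2 fold changes by edgeR (color scale) at 4 h, 2 d and 4 d against 0 h (columns) of the 18 tested genes of the wider complement list (rows); asterisks mark an adjusted p under 0.05. C3AR1, C5AR1, C5AR2, ITGAM and ITGAX were called lower at 4 h, and VSIG4 reached 6.12 at 4 d.

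The line and other cell types were checked with marker lists. All 9 promyelocyte or neutrophil markers were detected, and their sum was 11600 to 11800 CPM at 4 d and 31000 to 44300 CPM at 0 h, with CSF3R, CEACAM8 and CD33 higher and MPO, ELANE, AZU1, PRTN3, CTSG and LTF lower. CR1, CFP and VSIG4 are also known from monocytes and macrophages. Of 8 monocyte or macrophage markers 5 could be tested, and at 4 d against 0 h 3 rose (CD68 and CSF1R among them) and 2 fell (CD14 and MARCO). That list summed to 398 to 481 CPM at 4 d, against 73.6 to 94 CPM at 0 h. MRC1 had 0 reads in all libraries, and CD163 and VCAN had 0 at 4 d. In bulk RNA more cells of a type and more RNA per cell cannot be told apart, and the part of these markers in the rise of CR1 and CFP was not tested. Erythroid markers summed to at most 0.821 CPM in a library. The 6 T or NK cell markers summed to 48.6 to 60.8 CPM at 4 d and 50.7 to 67.7 CPM at 0 h, most of it NKG7, and CD3E was called higher at 4 d. The 4 platelet markers summed to 4.57 to 6.24 CPM at 4 d and 15.3 to 27.4 CPM at 0 h, most of it ITGA2B. The 5 markers of liver, the source of most plasma complement, summed to 21.4 to 25.2 CPM at 4 d and 40.3 to 51.9 CPM at 0 h, nearly all of it SERPINA1, which myeloid cells also express.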

How the data were processed

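The deposited values are raw read counts for each gene, 1 file a library, and each file ends with 5 classes of unassigned reads. Reads in the no-feature class were 13.97% to 28.15% of a library, and all 5 classes stayed out of library sizes. Per the submitters' processing notes, the tools were FastQC, Trim Galore 0.6.7, HISAT2 2.1.0 and HTSeq 1.99.2, on hg19. No source used here states the annotation, strand setting or kit.

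R 4.3.3 and edgeR 4.0.16 were used. The 12671 genes kept by filterByExpr, with 99.9% of gene reads, were scaled by TMM and fitted with 1 mean per time to 12 libraries (8 residual degrees of freedom). Adjusted p-values are Benjamini-Hochberg over all tested genes. Alternatives were RLE factors, DESeq2 1.42.0, limma-voom (limma 3.58.1), no low-count filter, fits to 6 libraries, replicate number as a term, an offset for GC content and length, and libraries left out. Exon lengths, GC content and overlaps came from GENCODE on GRCh38, matched by symbol for 93.0% of genes, and promoters from RefSeq (8 of 9 members). log2 CPM used a prior count of 2.

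All members are named. Of the wider complement list, up to 4 called genes per comparison are named by size of change, and for likeness the 3 nearest genes of each member called over all times. The members and lists were chosen with earlier results of these data known. Replicate pairs differed by more than counting error (chi-square per degree of freedom 3.47 to 98).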

Additional observations from a re-analysis of the deposited data

How the results depend on the processing

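Of 45 member results (9 genes in 5 comparisons), 24 were called, and 20 of these kept their direction and call in every alternative that gave a value. CR2 was filtered out of the fits to 6 libraries, so its 4 d call against 0 h rests on 19 alternatives, and 5 members were called in that fit. The other 4 were CD55 and C3 at 2 d against 0 h, CD46 for 2 d against 4 h and CR2 for 4 d against 2 d, which lost the call in some alternatives and kept their sign.

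At 4 h against 0 h the count of called genes was 790, but 1339 with DESeq2, 1960 with no low-count filter, 261 in the fit to 6 libraries and 1318 with the GC and length offset. With the 3 libraries of raised GC slope left out it was 3192, with 4 members called, and 6725 genes were called for 2 d against 4 h and 5549 for 4 d against 2 d, against 4377 and 3374 from all libraries. Of the genes called at 4 h 32.2% were higher, and 49.3% in that setting. Leaving out single libraries gave 254 genes (4 h replicate 2 left out) to 1519 (4 h replicate 3 left out) at 4 h, where it was 340 when 4 h replicate 1 and 476 when 0 h replicate 2 was left out. For 4 d against 2 d it gave 2110 (2 d replicate 2 left out) to 4215, and 2245 when 2 d replicate 1 was left out. The cause was not tested.

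The labels do not pair same-numbered libraries, and 6 of 18 correlations of their deviations passed 0.1 (range -0.809 to 0.671), with 2 of 12 libraries correlating best with their own number. With a replicate block 381 genes were called at 4 h, and CD55 at 2 d and CR2 for 4 d against 2 d were not called (edgeR adjusted p = 0.0916 and 0.0551).

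The sign changed in no called member value. Against 0 h, with the GC and length offset, CD46 was -0.34, CD59 -0.11, CFD 0.079 and CFP 0.054 at 4 h, CD59 -0.20 at 2 d, and CD59 -0.21 and CFD 0.10 at 4 d. With the 3 libraries left out CD59 was -0.12 at 4 h, -0.12 at 2 d, -0.0053 at 4 d, 0.0038 for 2 d against 4 h and 0.12 for 4 d against 2 d. That last step was 0.022 with RLE factors, 0.022 with DESeq2 and 0.0049 in the fit to 6 libraries. Leaving out single libraries gave -0.061 to 0.29 for CD46, -0.067 to 0.17 for CD59 and -0.40 to 0.25 for CFP at 4 h, and for CD59 -0.12 to 0.12 at 2 d, -0.11 to 0.13 at 4 d and -0.082 to 0.11 for 4 d against 2 d. Members with few reads, CR2 above all, are limited by depth.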
